A study of Mus musculus with 28 samples.

Results

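Ager encodes RAGE, the receptor for advanced glycation end-products, and 1 of the 23478 gene rows in each of both deposited count tables carries that name. The gene was chosen by its symbol, not by a rule on its values, but with earlier results of these data known. It is described here across 19 mouse lung RNA-seq libraries and in the lists of open chromatin regions from 9 ATAC-seq libraries of the same study. The study asked how Yap, a transcriptional co-activator that Hippo signalling restrains, bears on alveolar type 2 (AT2) cells and on the genes of alveolar type 1 (AT1) cells. The Cre was switched on at postnatal day 3, and the cells were analysed at postnatal day 14 for all groups.

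In the Yap active group, mice carried floxed Stk3 and Stk4, which encode the Hippo kinases MST2 and MST1, together with SftpcCreert2, a tamoxifen-inducible Cre under the promoter of the AT2 gene Sftpc (6 RNA libraries and 3 ATAC libraries). The Yap active controls carried the same Stk3 flox/flox and Stk4 flox/flox alleles without the Cre (4 RNA and 3 ATAC). In the Yap deleted group, mice carried Yap flox/flox with SftpcCreert2 (5 RNA and 2 ATAC), and the Yap deleted controls carried Yap flox/flox without the Cre (4 RNA and 1 ATAC). All groups were sorted as EPCAM-positive lung cells, after removal of cells that carried CD31, CD45, CD90.2, CD271, Ter119 or CD16/32. The driver thus acts in cells with Sftpc promoter activity, while the sort keeps all EPCAM-positive epithelium that passes the depletion. Whether the libraries of a group come from separate animals is not stated, so p-values cover the spread between these libraries and that spread may in part be technical. Xist, an RNA of female cells, was high in some libraries of each group and low in others, so no group rests on a single source of cells.

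RAGE is a cell-surface receptor of the immunoglobulin superfamily. In the lung it is among the best-known markers of AT1 cells, the thin cells that line most of the gas-exchange surface, where it lies at the basal membrane. It binds S100 proteins, HMGB1, amyloid and glycated proteins, signals to NF-kappaB and to small GTPases through DIAPH1, and is shed from the membrane by proteases such as ADAM10 and MMP9.

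Ager lies on the plus strand of mouse chromosome 17 at chr17:34597460-34600937 (RefSeq, GRCm38.p6, the same assembly as the mm10 build of the authors' files). Pbx2, a homeodomain gene, ends 59 bp before it, Rnf5, a ubiquitin ligase gene, begins 161 bp after it, and no annotated gene overlaps it. The promoter window is printed because 1 of the authors' peaks lies over it and because the study's candidate regulators have known motifs to look for. It spans chr17:34597600-34597899 on the plus strand, from 250 bases before to 50 after the RefSeq start site at 34597850, and has a GC content of 58.3%. The annotated gene begins at 34597460, so this window lies inside it, and the sequence before that position was not searched. Capitals mark the 1 match found.
Ager promoter: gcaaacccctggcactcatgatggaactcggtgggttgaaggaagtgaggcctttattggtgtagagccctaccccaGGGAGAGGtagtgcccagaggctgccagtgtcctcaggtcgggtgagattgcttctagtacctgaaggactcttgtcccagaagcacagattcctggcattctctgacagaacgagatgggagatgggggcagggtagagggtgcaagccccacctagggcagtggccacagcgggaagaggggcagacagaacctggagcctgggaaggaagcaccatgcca
Of 4 motifs searched on both strands, GGGNGNGG, a Klf and GC-box form, matched once on the plus strand as GGGAGAGG, starting at −173 from the start site. That form is present in 49.5% of the 32851 RefSeq promoter windows of the same length. GGAATG of Tead factors (14.7% of windows), TTGGC of nuclear factor I (46.7%) and CTCAAG of Nkx2-1 (15.9%) had no match, which says only that these letters are not in this window.

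Sequencing depth was 34.98 to 43.5 M counts per library in the Yap active line and 31.9 to 42.9 M in the Yap deleted line, and levels are given as CPM, counts scaled to a common library size by TMM. In each table the first principal component (58.1% and 56.9% of variance) divided the libraries into a larger and a smaller set that did not follow the labels in full. In the Yap active line the smaller set was Yap active 1 and controls 1, 2 and 3, and the larger set was Yap active 2 to 6 and control 4. In the Yap deleted line the smaller set was controls 1 and 2, in which 7 endothelial genes summed to 1402 to 1741 CPM, against 40.2 to 117 CPM in the other 7 libraries. Esr1, to which reads of the estrogen-receptor part of the Cre can be counted, went against the label in 3 libraries: it was at 1.97 CPM in the library labelled Yap active 1, at 159 CPM in the library labelled Yap active control 2 and at 86.3 CPM in the library labelled Yap deleted control 2. The AT2 gene Sftpc was at 2073 CPM or more in every library. The targeted genes were read over their whole length, deleted exons or not. Stk3 was at 30.6 to 49.4 CPM in Yap active libraries and 34.1 to 54.2 CPM in their controls. Its highest active value was in the library labelled Yap active 1 and its lowest control value in the library labelled control 4. Stk4 was at 78.7 to 124 CPM in Yap active libraries and 103 to 120 CPM in their controls. Its highest active and highest control values were in these same libraries. Stk3 also followed the sets, at 49.4 to 54.2 CPM in the smaller set and 30.6 to 35.5 CPM in the larger set. In the Yap deleted line Stk3 was at 39.9 and 37.1 CPM in controls 1 and 2 and 19.8 to 27.2 CPM in the others.

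Ager was among the most abundant transcripts by count in every library. It took 30497 to 169415 counts, or 0.0824% to 0.476% of a library, and ranked between 10 and 108 among all genes by count, with a median rank of 25. The tables give no gene lengths, so these ranks are of counts and not of levels per length. The Yap active libraries ranked Ager 21, 19, 16, 17, 18 and 15, the Yap active controls 36, 26, 53 and 13, the Yap deleted libraries 13, 33, 35, 63 and 108, and the Yap deleted controls 53, 66, 10 and 25.

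In the Yap active line, Ager was higher on average with Stk3 and Stk4 targeted, but the difference did not pass the test. Over Yap active 1 to 6 the level ran from 2109.6 to 3616 CPM with a median of 3053 CPM, while controls 1 to 4 held 1299.8, 1928, 938 and 3807 CPM. The means were 3044 ± 525 CPM in Yap active libraries and 1993 ± 1276 CPM in their controls (SD, n = 6 and 4). All 6 Yap active libraries lay above controls 1, 2 and 3, and all 6 lay below control 4, so the groups overlapped through that one control. The log2 fold change was 0.60 ± 0.35 SE (edgeR quasi-likelihood test, Benjamini-Hochberg adjusted p = 0.373). An exact two-sided permutation test of log2 CPM gave a difference of 0.80, a fold of 1.74, with p = 0.0762 over 210 arrangements. Of 15685 genes tested in this line, 0 were called at an adjusted p under 0.05 (0% called, 1981 at an unadjusted p under 0.05), and DESeq2 called 18.

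The size of this difference moved with control 4 and with the division into sets. Without control 4 the log2 fold change was 1.13 (adjusted p = 0.0658 by edgeR), and the exact permutation test reached p = 0.0119, the smallest that 6 against 3 libraries can give. Without control 3 it was 0.37. Within the larger set, Yap active 2 to 6 had a geometric mean of 3221 CPM against 3807 CPM in control 4, a log2 difference of −0.24, and within the smaller set Yap active 1 had 2109.6 CPM against a geometric mean of 1329.6 CPM in controls 1 to 3, a log2 difference of 0.67. With the set as a covariate the log2 fold change was 0.15 (edgeR, adjusted p = 1.0). Limma-voom with sample quality weights, in contrast, gave 1.29 (adjusted p = 0.000813) while calling 8845 genes in this line. Without the libraries labelled Yap active 1 and control 2, whose Esr1 went against the label, it was 0.67 (adjusted p = 0.281 by edgeR).

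In the Yap deleted line, Ager varied more within each group than between them. The Yap deleted libraries 1 to 5 held 3141, 1773, 1667, 1074 and 878 CPM, and their controls 1 to 4 held 1015, 871, 4827 and 2219 CPM. The highest level of all 19 libraries was in control 3 and the lowest in control 2, so all 5 Yap deleted libraries fell between 2 controls. Means were 1706 ± 887 CPM in Yap deleted libraries and 2233 ± 1832 CPM in their controls (SD, n = 5 and 4). The log2 fold change was −0.39 ± 0.55 SE (edgeR, adjusted p = 0.722), and the exact permutation test gave a difference of −0.18 with p = 0.786 over 126 arrangements. Of 15818 genes tested, edgeR called 1 (0.00632%), and 2422 had an unadjusted p under 0.05. DESeq2 called 792 genes here, and weighted limma-voom called 0.

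Here too the value moved with single libraries. Without control 3 the log2 fold change of Ager turned to 0.29, and without Yap deleted 1 it was −0.77. Leaving out controls 1 and 2, the libraries with high endothelial sums, gave −1.07 ± 0.50 SE (edgeR, adjusted p = 0.839). In those 7 libraries the Yap deleted group had a geometric mean of 1543 CPM against 3273 CPM in controls 3 and 4, a fold of 0.471, with p = 0.143 in an exact permutation test that cannot go below 0.0476. In bulk RNA, fewer AT1 cells and less Ager RNA per cell cannot be told apart.

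**Figure D1:**
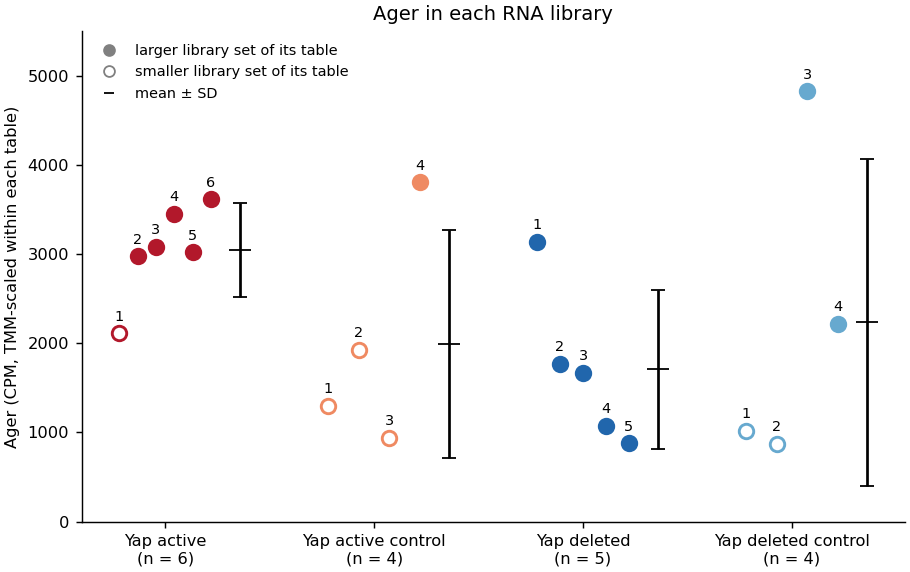
Ager in CPM, scaled by TMM within each table, for the 19 RNA libraries by group, with the replicate number at each point, open points for the smaller library set of each table, and mean ± SD beside each group. Yap active libraries sit between 2109.6 and 3616 CPM, while their controls span 938 to 3807 CPM and the Yap deleted controls span 871 to 4827 CPM.

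**Figure D2:**
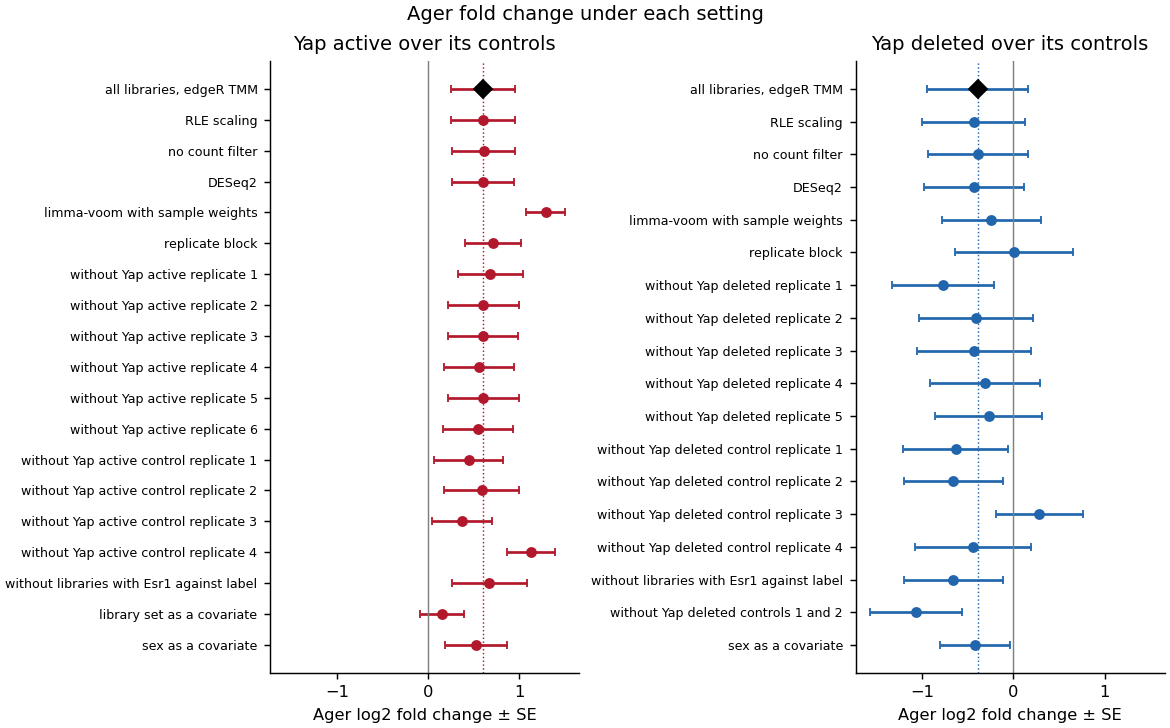
Log2 fold change of Ager ± SE over its controls in the Yap active line (left) and the Yap deleted line (right) under each fit, with the fit of all libraries as a black diamond and a dotted line. The Yap active value spans 0.15 to 1.29, and the Yap deleted value spans −1.07 to 0.29.

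The change of Ager in the Yap active line exceeded that in the Yap deleted line by 1.01 ± 0.67 SE on the log2 scale, without passing the test (edgeR over all 19 libraries, adjusted p = 0.793). Of 16308 genes, 0 were called for this difference (0%, 1055 at an unadjusted p under 0.05), and DESeq2 called 17. Leaving out 1 library at a time moved the value between 0.30, without Yap deleted control 3, and 1.51, without Yap active control 4. With all libraries scaled together, the mean log2 level was highest in the Yap active group, followed by the Yap active controls, the Yap deleted controls and the Yap deleted group. No neighbours in that order differed beyond their spread: the difference was 0.77 for the Yap active group minus its controls (exact permutation p = 0.0762, adjusted p = 0.229 over 6 pairs), 0.06 for the Yap active controls minus the Yap deleted controls (exact p = 0.943, adjusted p = 0.943) and −0.18 for the Yap deleted group minus its controls (exact p = 0.794, adjusted p = 0.943). The Yap active and Yap deleted groups, which come from different lines, differed by 1.01 (exact permutation p = 0.0173, adjusted p = 0.104 over the 6 pairs). The study describes Ager as responsive to Yap. Here edgeR called no change of Ager, but it called 0 or 1 gene per comparison, and not the targeted Yap1 either, so the missing call says little about that description.

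To see whether Ager moved apart from other AT1 genes, its level was set against the mean log2 level of Hopx, a homeodomain-only protein, Aqp5, a water channel, and Pdpn, a membrane glycoprotein. The absolute ratio depends on gene lengths, so only its differences between libraries were read. Yap active libraries 1 to 6 ranged from 6.74 to 15.7 in this ratio with a median of 12.1, against 8.45, 6.95, 8.63 and 12.6 in controls 1 to 4. Yap active 1 was the lowest and Yap active 5 the highest, and the groups overlapped (log2 difference 0.31, exact permutation p = 0.310). The Yap deleted libraries held 8.98, 10.5, 9.06, 7.79 and 8.62, and their controls 7.22, 6.77, 10.03 and 8.91. Their log2 difference was 0.14 (exact permutation p = 0.341). Over these 9 libraries the ratio to the 3 genes spanned 6.77 to 10.5, while Ager itself spanned 871 to 4827 CPM.

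The 29 other AT1 genes of the list gave 20 higher and 9 lower in the Yap active line, with 0 called against a background of 0% called, and a median log2 fold change of 0.12 (−0.01 over all genes tested). Of the same genes, 4 were higher and 25 lower in the Yap deleted line, with 0 called against 0.00632% called in all, and a median of −0.57 (0.01 over all genes), ranging from −1.17 to 0.22. Endothelial genes had a median of −4.41 in that line, with sums of 1402 to 1741 CPM in controls 1 and 2 against 40.2 to 117 CPM in the other libraries. The part of such cells in the AT1 values was not tested. Aqp5 was at 369 to 1032 CPM in Yap active libraries and 201 to 763 CPM in their controls, and its log2 fold change of 0.88 ± 0.41 SE was not called (edgeR, adjusted p = 0.366). Pdpn, at −0.88 ± 0.48 SE in the Yap deleted line, was not called either (adjusted p = 0.402). Of the 12 AT2 genes, 12 were higher and 0 lower in the Yap active line with a median of 0.37, and 11 were higher and 1 lower in the Yap deleted line with a median of 0.61. Again 0 were called in either line. The summed AT2 level was 33066 to 35712 CPM in the smaller set of the Yap deleted line and 55476 to 110500.3 CPM in the larger set. Its part in the result on Ager was not tested.

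**Figure D3:**
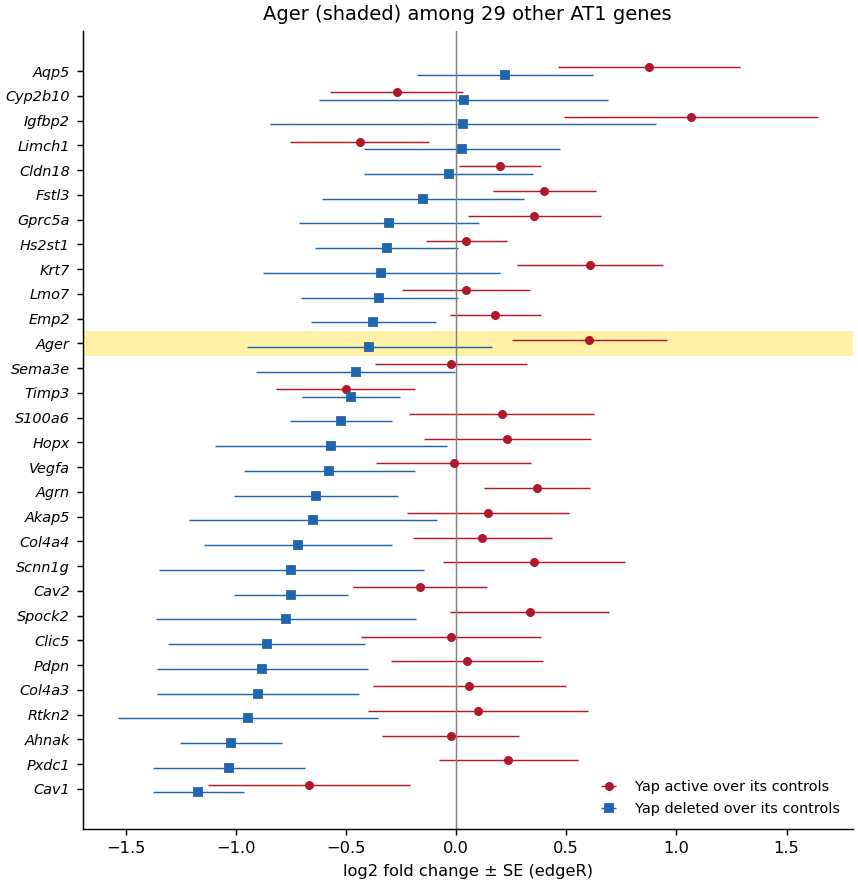
Log2 fold change ± SE over controls for Ager (shaded) and 29 other AT1 genes, ordered by the value in the Yap deleted line, with circles for the Yap active line and squares for the Yap deleted line. Ager lies at 0.60 and −0.39, and none of the genes passed the test in either line.

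Ager was next set against the 4 regulators that the study connects with it. Nfib encodes a nuclear factor I transcription factor, Klf5 a Krueppel-like zinc-finger factor, Nkx2-1 the homeodomain factor of lung epithelium, and Yap1 the co-activator Yap itself. None of the 4 was called in either line. Yap1, the gene targeted in the Yap deleted line, was at 78.8, 142, 103, 84.4 and 95.7 CPM in Yap deleted libraries against 211, 118, 169 and 187 CPM in Yap deleted controls 1 to 4. Its change of −0.78 ± 0.22 SE on the log2 scale was not called (edgeR, adjusted p = 0.247). The library labelled Yap deleted control 2 held less Yap1 than Yap deleted 2.

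Across the 10 libraries of the Yap active line, log2 levels of Ager and Nfib had a Pearson r of −0.87 (permutation p = 0.00093, adjusted p = 0.00223 over 12 relations) and a Spearman rho of −0.78 (permutation p = 0.0114, adjusted p = 0.0273). Nfib was highest, at 392.8 to 466.5 CPM, in Yap active 1 and controls 1 and 3, in which Ager was at 938 to 2109.6 CPM. For Klf5, r was 0.92 (permutation p = 0.00056, adjusted p = 0.00168) and rho 0.70 (permutation p = 0.0309, adjusted p = 0.0618). For Nkx2-1, r was 0.81 (permutation p = 0.00407, adjusted p = 0.00814) and rho 0.64 (permutation p = 0.0536, adjusted p = 0.0714). Ager thus ran against Nfib and with Klf5 and Nkx2-1 in this table, while for Yap1 r was −0.65 (permutation p = 0.0432, adjusted p = 0.0648) and rho −0.66 (permutation p = 0.0434, adjusted p = 0.0650). Without the 2 libraries farthest from the median of each regulator, r was −0.75, 0.81, 0.76 and −0.69 for Nfib, Klf5, Nkx2-1 and Yap1. None of the 4 passed the threshold (permutation p adjusted over the same family of 0.0664 to 0.0988). For Nfib, Klf5 and Nkx2-1, the part of those libraries in the lost call cannot be told apart from that of testing 8 libraries.

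None of these relations passed the test within the larger set. Over its 6 libraries r was −0.16 for Nfib, −0.20 for Klf5, −0.14 for Nkx2-1 and −0.13 for Yap1 (exact permutation p = 0.771, 0.631, 0.768 and 0.806, adjusted p = 0.806 each over 8 relations). Ager spanned only 2976 to 3807 CPM in these 6 libraries, so r there covers a narrow range. Each group was also centred on its mean, which does not remove the sets. Over the 10 libraries r was then −0.81 for Nfib, 0.88 for Klf5, 0.72 for Nkx2-1 and −0.55 for Yap1 (permutation test, adjusted p = 0.0066, 0.00288, 0.0283 and 0.116). How far the coefficients over 10 libraries rest on the distance between both sets was not tested. The smaller set, with 4 libraries, is too small for a coefficient of its own. Without the 2 libraries of the larger set farthest from the median of each regulator, r over the 4 that remain was −0.84 for Nfib, 0.02 for Klf5, −0.06 for Nkx2-1 and 0.24 for Yap1, which is too few to test. AT2 genes summed to 47989 to 74290.1 CPM in the smaller set and 99700.2 to 158733 CPM in the larger one, mesenchymal genes to 3209 to 6171 CPM and 949 to 3718 CPM, and endothelial genes to 70.1 to 272 CPM and 17.7 to 43.2 CPM. Airway genes summed to 3225 to 4885 CPM and 10186 to 17401 CPM, and mesothelial genes to 467 to 786 CPM and 91.6 to 340.1 CPM. Of the 6 airway genes, 6 were higher in the Yap active line (median log2 fold change 0.94), where 7752 of all 15685 genes tested were. By edgeR, 4 of the airway genes had an unadjusted p under 0.05, as 1981 of all genes did, and 0 were called (0% of all genes). The part of these cell types in the correlations was not tested.

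The signs over the 9 libraries of the Yap deleted line were the same for Nfib, Klf5 and Nkx2-1, without a call. Pearson r was −0.65 for Nfib (exact permutation p = 0.0597, adjusted p = 0.0716), 0.66 for Klf5 (exact p = 0.0486, adjusted p = 0.0648), 0.69 for Nkx2-1 (exact p = 0.0382, adjusted p = 0.0648) and 0.16 for Yap1 (exact p = 0.677, adjusted p = 0.677). Spearman rho was −0.63, 0.72, 0.87 and 0.07, of which the value for Nkx2-1 passed the threshold (exact permutation p = 0.00451, adjusted p = 0.0135). Within the larger set of 7 libraries r was −0.46 for Nfib, 0.59 for Klf5, 0.74 for Nkx2-1 and 0.46 for Yap1 (exact permutation p = 0.292, 0.163, 0.0575 and 0.291, adjusted p = 0.584, 0.584, 0.460 and 0.584).

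Over all 19 libraries, r was −0.76 for Nfib (permutation p = 0.00024, adjusted p = 0.00144), 0.72 for Klf5 (permutation p = 0.00047, adjusted p = 0.00168), 0.75 for Nkx2-1 (permutation p = 0.00007, adjusted p = 0.00084) and 0.25 for Yap1 (permutation p = 0.296, adjusted p = 0.323). Spearman rho was −0.69, 0.66, 0.75 and 0.03. The first 3 of these also span the distance between library sets. The level of Yap1 RNA itself, lowest on average in the Yap deleted group, had no called relation to Ager. Yap deleted 1, with the least Yap1 of all libraries, held 3141 CPM of Ager.

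**Figure D4:**
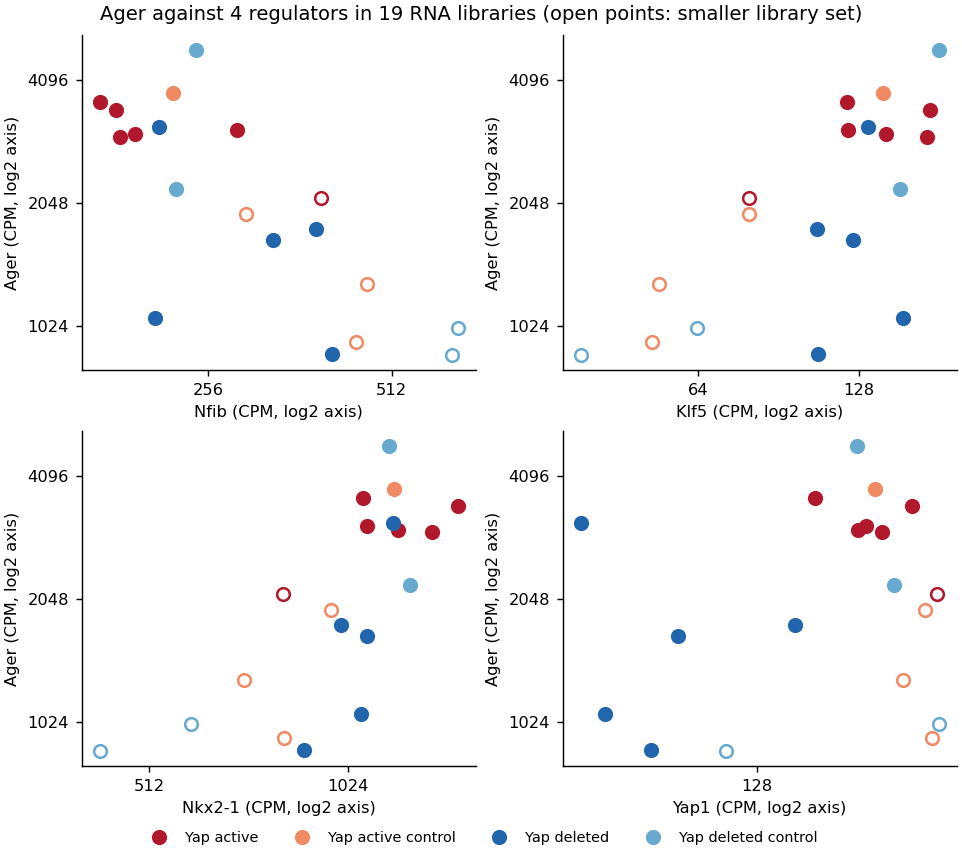
Ager against Nfib, Klf5, Nkx2-1 and Yap1 in CPM on log2 axes, 1 point per RNA library coloured by group, with open points for the smaller library set of each table. Within each table the open points hold more Nfib and less Klf5 than the filled ones, and in the Yap active line also less Ager, while the filled points alone show no trend with Nfib, Klf5 or Nkx2-1 in the Yap active line (r of −0.16, −0.20 and −0.14).

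Across 11891 genes with 4 CPM or more on average in both tables, likeness to Ager was taken as the mean of Pearson's r over the 10 libraries of the Yap active line and r over the 9 of the Yap deleted line. The 10 genes most like it were Tmem37 (0.98), Unc13d (0.98), Myl12a (0.97), Krt7 (0.97), Galnt18 (0.96), 2200002D01Rik (0.96), Efna1 (0.95), Cldn18 (0.95), Radil (0.95) and Scnn1b (0.95). Unc13d encodes a factor of granule release, Myl12a a myosin light chain, Krt7 a keratin, Efna1 an ephrin, Cldn18 the claudin of alveolar tight junctions and Scnn1b a subunit of the epithelial sodium channel. Tmem37 was at 34.2 to 114 CPM in Yap active libraries and 11.2 to 82.5 CPM in their controls, and at 14.4 to 61.3 CPM in Yap deleted libraries and 11.1 to 78.9 CPM in their controls, so it overlapped between groups as Ager did. Within the larger set of the Yap active line the likeness of some was lost, with r of 0.01 for Radil and 0.05 for Scnn1b, while Krt7 kept 0.77 and Cldn18 0.87. The 5 least alike were Arel1 (−0.89), Syne1, Sfrp1, Evi5 and Rnf214 (−0.88 each), of which Sfrp1 encodes a secreted Wnt antagonist and Syne1 a nuclear-envelope protein.

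Of the 29 other AT1 genes, 11 were in the top 10% of likeness, and their median r with Ager was 0.37 in the Yap active line and 0.90 in the Yap deleted line (0.24 and 0.09 over all genes ranked). Within the larger sets their median was 0.75 and 0.94 (0.02 and −0.01 over all genes). Of the 12 AT2 genes, 0 were in the top 10%, with Sftpd the closest at rank 2407, and their median r was 0.75 and 0.25 in the Yap active and Yap deleted lines. Within the larger sets it was 0.26 and −0.53, so the higher median of AT2 than of AT1 genes in the Yap active line was not seen there. Aqp5 ranked 31, Hopx 452 and Pdpn 2980, with r of Pdpn at 0.22 in the Yap active line and 0.87 in the Yap deleted line. Klf5 ranked 313, Nkx2-1 594, Yap1 8057 and Nfib 11624. These coefficients share the same libraries and are given as a description.

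Genes for RAGE ligands were examined next. Of 13 listed, 12 were tested in each line, with 6 higher and 6 lower in the Yap active line and 4 higher and 8 lower in the Yap deleted line, and 0 were called in either, where 0% and 0.00632% of all genes were. Hmgb1, a nuclear protein released from damaged cells, was at 80.7 to 137 CPM in Yap active libraries and 83.2 to 177 CPM in their controls (−0.57 ± 0.22 SE on the log2 scale, edgeR, adjusted p = 0.366). It was at 71.9 to 92.8 CPM in Yap deleted libraries and 86.8 to 176 CPM in their controls (−0.55 ± 0.21 SE, adjusted p = 0.282). Of the calcium-binding S100 proteins, S100a11 (0.72) and S100a1 (0.73) had positive values in the Yap active line without a call, and neither S100a1 (0.72) nor S100a6 (−0.52) was called in the Yap deleted line. S100a8 and S100a9, ligands made by neutrophils, and S100a4 gave −5.97, −5.79 and −2.57 in the Yap deleted line, again with no call (adjusted p = 0.247, 0.247 and 0.264). S100a8 reached 1.66 CPM in Yap deleted libraries and 200.1 CPM in their controls, where 7 leukocyte genes summed to 42.7 to 85.2 CPM in Yap deleted libraries and 116 to 480 CPM in controls. The part of these cells was not tested.

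Among 15 tested genes of RAGE shedding and signalling, 9 were higher and 6 lower in the Yap active line and 4 higher and 11 lower in the Yap deleted line, with 0 called (0% and 0.00632% of all genes). Adam10, a sheddase of RAGE, gave −0.22 ± 0.17 SE in the Yap active line and −0.36 ± 0.18 SE in the Yap deleted line (adjusted p = 0.465 and 0.370). Src, a tyrosine kinase, Myd88, an adaptor of innate receptors, and Nfkb1, an NF-kappaB subunit, had the smallest p in the Yap active line, at 0.35, 0.41 and 0.21 (adjusted p = 0.366 each). The corresponding genes in the Yap deleted line were Mmp9 (−4.61, adjusted p = 0.247), which was at no more than 1.43 CPM in the Yap active line, and, among genes at 4 CPM or more in both tables, Rac1, a small GTPase (−0.34, adjusted p = 0.323), Adam10 and Stat3 (0.21, adjusted p = 0.436). Other receptors of the same ligands and the glyoxalases gave 6 higher and 5 lower in the Yap active line and 6 higher and 6 lower in the Yap deleted line, with 0 called against the same background of 0% and 0.00632%. Lgals3, a galectin that binds glycated proteins, gave 1.08 ± 0.40 SE in the Yap active line (adjusted p = 0.366), where Prkcsh (0.49) and Ddost (0.57), both of which also act in glycosylation, were next by p. Glo1, a glyoxalase that removes a precursor of glycation products, was at 67.3 to 78.8 CPM in Yap deleted libraries and 50.3 to 60.0 CPM in their controls. Its log2 fold change of 0.37 ± 0.10 SE in that line was not called (edgeR, adjusted p = 0.247). Stab1 (−3.64), Tlr2 (−1.14) and Ddost (0.48) were next by p in that line, without a call.

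The genes on either side of Ager did not share its level. Pbx2 was at 85.4 to 106 CPM in Yap active libraries and 81.5 to 93.4 CPM in their controls, and at 77.3 to 94.0 CPM in Yap deleted libraries and 89.2 to 117 CPM in their controls. Rnf5 was at 36.4 to 64.1 CPM and 36.1 to 53.8 CPM in the Yap active group and its controls, and at 52.8 to 58.5 CPM and 34.8 to 52.7 CPM in the Yap deleted group and its controls. Of 10 neighbours from Notch4 to Atf6b, 4 were higher and 6 lower in each line, with 0 called (0% and 0.00632% of all genes in the Yap active and Yap deleted lines). Notch4, an endothelial Notch receptor, was at 4.79 to 6.36 CPM in Yap deleted libraries and 6.21 to 92.9 CPM in their controls (−3.09 ± 0.79 SE, adjusted p = 0.247), and the endothelial sums given above moved with it. By p, Notch4 (−0.79), Rnf5 (0.34) and Agpat1 (0.30) came first in the Yap active line, and Gpsm3 (−1.56), Rnf5 (0.35) and Pbx2 (−0.30) followed Notch4 in the Yap deleted line.

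No region in the authors' 4 lists of opened or closed chromatin was annotated to Ager. In the Yap active line 6017 regions were listed as opened, naming 19.3% of all genes in the tables, and 1392 as closed, naming 4.98%. For the Yap deleted line the lists held 532 opened regions (2.04% of genes) and 676 closed ones (2.41%). The regions have no values per library, so there is no replicate check. Of the 29 other AT1 genes, 10 were named among regions opened in the Yap active line, Hopx, Aqp5 and Cldn18 among them, and 3 among those closed there, Cldn18 again included. For the Yap deleted line, 1 was named among opened regions and 3 among closed ones, with Cldn18 once more.

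Within 100 kb of the Ager start site lay 2 listed regions. A region opened in the Yap active line at chr17:34646851-34647825, in intron 1 of Atf6b by the authors' annotation, lay 49.0 kb away with a HOMER score of 62.1, rank 2094 of 6017. A region opened in the Yap deleted line at chr17:34660638-34662060, annotated as intergenic with Tnxb as its nearest gene, lay 62.8 kb away with a score of 24.9, rank 211 of 532. The nearest closed regions lay at −459 kb in the Yap active line and −2573 kb in the Yap deleted line. Of the 4 regulators, Nfib, Klf5 and Nkx2-1 each had a region opened in the Yap active line within 1 kb of the start site, at −0.205, 0.718 and 0.825 kb with scores of 115, 111 and 58.4. Yap1 had a region closed in that line, 46.2 kb from its start with a score of 12.6.

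The authors' 4 peak lists cover the Yap active group and its controls, 2 lists each, with the libraries behind each list not given in the sources used here. Yap active list 1 held 3 peaks within 10 kb of Ager and list 2 held 2, none of them over the gene, and control list 1 held 0 and control list 2 held 1. The control peak, at chr17:34597617-34597878, covered −233 to 28 from the start site and so most of the promoter printed above, including the GGGAGAGG match. The authors gave it a fold of 2.40 over background, a −log10 p of 2.60 and a −log10 q of 0, and 37.9% of that list had a lower −log10 p. In Yap active list 1 a peak at −5691 to −5544 from the start site overlapped the start of Pbx2 with a fold of 2.37 and a −log10 q of 0.131. Of that list, 76.8% had a lower −log10 p. Downstream, between Rnf5 and Agpat1, peaks of lists 1 and 2 began 5826 and 5865 bases after the start site, with folds of 2.07 and 1.62 and −log10 q of 0.491 and 0.00339. In their lists 91.5% and 34.7% had a lower −log10 p. The remaining peaks of lists 1 and 2 began 7853 and 6290 bases after the start site, and these shares were 35.7% and 35.8%. The lists differ in length, at 61739 and 53714 peaks for the Yap active group and 345109 and 28418 for its controls, so a peak present in one and missing in another is given as a position only.

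**Figure D5:**
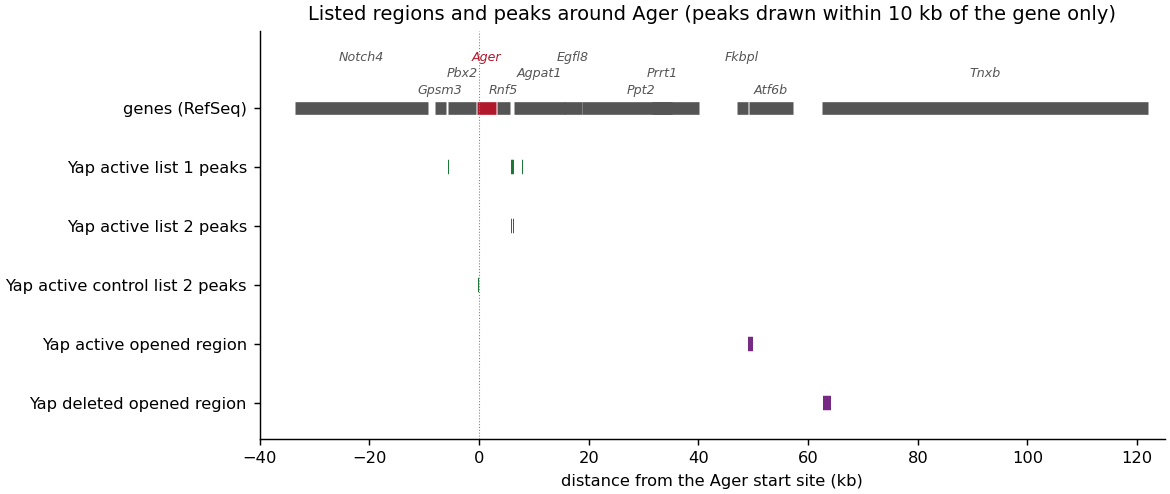
RefSeq genes, the authors' peaks within 10 kb of Ager and their opened regions, as distance from the Ager start site in kb, with Ager in red and a dotted line at its start site. The only peak over the gene comes from Yap active control list 2, and the opened regions lie 49.0 kb and 62.8 kb away.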

How the data were processed

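Raw counts per gene were deposited by the authors for 19 RNA libraries in 2 tables, 1 for each mouse line. Build mm10 and the tools HOMER, DESeq, Cufflinks, Bowtie2 and Trim Galore appear in the submitters' processing notes, with neither versions nor the steps they were used for. The counting program and annotation are not given in the sources used here, so the treatment of strand and of shared reads is unknown. The authors' region lists carry a HOMER score of unstated scale, per the file headers. Their peak lists, deposited in the broad-peak format of MACS, give a fold over background and −log10 p and q for each peak. All sample columns were used (0 left out). Of the gene names, 27 had become dates, none of them Ager.

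Counts were scaled by TMM, filtered with filterByExpr and compared over all genes, two-sided, with glmQLFit (robust) and glmQLFTest of edgeR 4.0.16 under R 4.3.3, with calls at a Benjamini-Hochberg adjusted p under 0.05. CPM values use the TMM-scaled library size of each table. Single values were compared over libraries with exact permutation tests, and correlations were tested with exact or 100000 permutations (numpy 2.4.6, scipy 1.17.1). Library sets were split at the largest gap of the first principal component, computed without Ager, Nfib, Klf5, Nkx2-1, Yap1, Hopx, Aqp5 and Pdpn. The other genes that passed the count filter stayed in, so differences between sets in other named genes and in cell type sums are not independent of the split. The fits and permutations were tested on simulated data.

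The gene and all lists were chosen with earlier results of these data known. Named without exception were Ager, its 4 regulators, Hopx, Aqp5, Pdpn, Sftpc, Esr1, Stk3 and Stk4, with the 10 genes most like Ager and the 5 least alike. Of each list around RAGE and the locus, the 3 genes with the smallest p per line were named, over all genes and over those at 4 CPM or more. Alternatives were RLE scaling, no count filter, DESeq2 1.42.0, limma-voom of limma 3.58.1 with sample weights, the replicate number as a block, each library left out, and libraries that stand apart left out. Covariates for library set and sex, and coefficients within sets, were chosen after seeing the data. Diaph1 was not analysed here. Promoter sequence and gene positions come from RefSeq, GRCm38.p6.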

Additional observations from a re-analysis of the deposited data

How the results depend on the processing

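For Ager in the Yap active line, all 18 refits of the model kept a positive sign, limma-voom with sample weights reached 1.29 (adjusted p = 0.000813), 10 fits that each leave out 1 library gave 0.37 to 1.13, and the value within the larger library set was −0.24. For the Yap deleted line, 17 refits gave −1.07 to 0.29, with the replicate block at 0.0042 (adjusted p = 0.999) and leave-one-out values of −0.77 to 0.29. The difference between lines was positive in all 27 refits (leave-one-out values of 0.30 to 1.51). Exact permutation differences, 1 library left out, ran from 0.50 to 1.17 in the Yap active line and from −0.52 to 0.30 in the Yap deleted line. Relative to Hopx, Aqp5 and Pdpn, Ager turned to −0.078 without Yap deleted controls 1 and 2. Without the 3 libraries whose Esr1 goes against the label, the Yap active controls minus the Yap deleted controls turned to −0.34. The cause of these turns was not tested.

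Calls in the Yap active line numbered 0 with edgeR, 18 with DESeq2, 8845 with limma-voom, 13 without the libraries whose Esr1 goes against the label and 0 to 2 with 1 library left out. Calls in the Yap deleted line numbered 1 with edgeR, 792 with DESeq2, 0 with limma-voom, 0 with sex as a covariate, 0 with the replicate block and 0 to 4 with 1 library left out.

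In the Yap active line the correlation with Nfib fell short of the threshold without the farthest 2 libraries (−0.75) and within the larger set (−0.16). Klf5 did so by Spearman's rho (0.70), without the farthest 2 (0.81) and without the libraries whose Esr1 goes against the label (0.93), and turned to −0.20 within the larger set. Nkx2-1 did so under the same settings (0.64, 0.76 and 0.83) and turned to −0.14. Centring each group in the Yap deleted line brought Nfib (−0.73), Klf5 (0.75) and Nkx2-1 (0.81) past the threshold, as Spearman's rho did for Nkx2-1 (0.87). Leaving out Yap deleted 4 also brought Nfib (−0.85), Klf5 (0.79) and Nkx2-1 (0.76) past it (exact permutation test, adjusted p = 0.0154, 0.0234 and 0.0346). Leave-one-out coefficients were −0.90 to −0.84 (Nfib), 0.90 to 0.95 (Klf5), 0.75 to 0.84 (Nkx2-1) and −0.74 to −0.58 (Yap1) in the Yap active line, and −0.85 to −0.57, 0.58 to 0.79, 0.65 to 0.76 and −0.080 to 0.44 in the Yap deleted line. Centred, the coefficients over 19 libraries were −0.75 for Nfib, 0.79 for Klf5, 0.78 for Nkx2-1 and −0.035 for Yap1. A limit of 500 kb in place of 100 kb gave 10 regions near Ager in place of 2.

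Whether replicate numbers pair the libraries is not settled by these values. Deviations of same-numbered libraries correlated at 0.52, 0.01, 0.05 and 0.49 in the Yap active line and −0.25, 0.44, 0.26 and 0.29 in the Yap deleted line. The best match was the same-numbered library for controls 1 and 4 of the Yap active line and controls 2 and 4 of the Yap deleted line. For the other controls it was a library of another number. The replicate block gave 0.71 (adjusted p = 0.400) in the Yap active line. With 31.9 to 43.5 M counts per library and at least 30497 for Ager, the spread between libraries rather than counting error limits the comparisons of Ager.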

Other observations

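Xist, the X-inactivation RNA of female cells, divided the libraries and was looked at after seeing the data. It was above 50 CPM in Yap active 1, 2, 3 and 6, Yap active control 4, Yap deleted 1 and 3 and Yap deleted control 3, at 249.99 to 754 CPM, and at most 3.11 CPM in the other 11 libraries. Ager in the 8 libraries with high Xist was at 1667 to 4827 CPM, and in the 11 libraries with low Xist at 871 to 3455 CPM. In each of the 4 groups, the library with the most Ager was one with high Xist. The reverse also occurred, since Yap active 1 had the highest Xist of all libraries, 754 CPM, and the least Ager of its group, 2109.6 CPM, and Yap deleted 3, with high Xist, held 1667 CPM of Ager against 1773 CPM in Yap deleted 2, with low Xist. With the 4 groups in the model, Ager was higher with high Xist by 0.86 ± 0.27 SE on the log2 scale (edgeR, unadjusted p = 0.00547, adjusted p = 0.721 over 16308 genes, of which 8 were called). With sex as a covariate the log2 fold change of Ager was 0.52 in the Yap active line (adjusted p = 0.618) and −0.43 in the Yap deleted line. Xist and the library sets overlap in part, since control 4 of the Yap active line is its only control with high Xist and its only control in the larger set, so sex and set cannot be told apart among those controls.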
